A study of Mus musculus with 54 samples.

Results

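H3K27me3 domains were followed from mouse embryonic stem cells (ESC) to mesoderm (MES), the first step of a directed differentiation toward heart muscle. Domains were built from the enriched regions called in 3 MES libraries (replicates 1 to 3) and 2 ESC libraries (replicates 2 and 3), on chromosomes 1 to 19 and X. Regions closer than 5 kb were joined within a library, and the joined regions of the 5 lists were merged into 8552 union domains. A gained domain was present in all 3 MES lists and in no ESC list, a lost domain in both ESC lists and in no MES list, and a kept domain in all 5 lists. These classes held 911 gained (10.7%), 40 lost (0.468%) and 1083 kept domains (12.7%), 2034 of 8552 in all. The percentages follow from the rule and are a description.

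All libraries came from cells of the 129/Ola strain. The MES libraries were taken at day 4, after embryoid bodies had been dissociated and reaggregated with VEGF, Activin A and BMP4, and the ESC libraries at day 0. Later cultures, in StemPro-34 medium with VEGF and fibroblast growth factors, gave cardiac precursors at day 5.3 (CP) and cardiomyocytes at day 10 (CM), with 3 H3K27me3 libraries at each stage. Active marks had 2 MES and 2 ESC libraries for H3K27ac and for H3K4me3, 3 and 3 for H3K4me1, and 2 MES and 1 ESC library for RNA polymerase II. The series has 54 labelled libraries, 46 of them with a list of enriched regions. The labels name no sorting of the cultures, and fewer cells with a mark and less mark per cell cannot be told apart. The labels call the replicates biological without saying which cultures they share, and p-values measure only the spread between these libraries.

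H3K27me3 is the trimethyl mark that Polycomb repressive complex 2 places on lysine 27 of histone H3, and it covers genes that are held silent. In stem cells many promoters of developmental regulators carry it together with H3K4me3, a promoter mark, a state called bivalent. The same lysine can carry acetyl groups instead, and H3K27ac marks active promoters and enhancers. H3K4me1 is found at enhancers and beside promoters, and the Ser5-phosphorylated form of RNA polymerase II (RNAPII Ser5P) gathers where transcribed genes begin.

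The lists differed in how much they held. The MES lists had 20012, 12929 and 11037 regions in replicates 1 to 3, and the ESC lists had 9373 in replicate 2 and 3252 in replicate 3. Those regions covered 14.1, 14.6 and 5.83 Mb in the MES libraries, against 7.32 Mb in ESC replicate 2 and 0.477 Mb in ESC replicate 3. ESC replicate 3 therefore stands apart, with short regions, and MES replicate 3 covered less than ESC replicate 2. The lowest peak height in a list was 11, 17 and 11 in the MES libraries and 26 and 16 in ESC replicates 2 and 3, so the lists were not called at 1 height. The depth of the libraries is unknown. A domain outside a list may lie below its threshold or lack the mark, and these cannot be told apart. An annotation of the mm9 genome, the build of the lists, was not at hand, so domains are named by position and the labelled cell types were not checked against marker genes.

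Most union domains were held by only some of the 5 lists. The most frequent pattern was a domain in MES replicate 1 alone (2125 domains with a median union width of 150 bases). Next came 1172 domains in all 3 MES lists and ESC replicate 2 but not in ESC replicate 3, with a median union width of 3975 bases. They missed the kept class only because the sparse ESC replicate 3 list does not hold them. The reverse case, ESC replicate 3 and all 3 MES lists without ESC replicate 2, held 62 domains. Just outside the gained class lay 1084 domains in 2 of the 3 MES lists and no ESC list, and just outside the lost class lay 26 domains in both ESC lists and 1 MES list. Among domains in 1 ESC list and no MES list, 701 came from ESC replicate 2 and 62 from ESC replicate 3. The class sizes rest on single libraries. Without ESC replicate 3, 741 domains were lost and 2255 were kept, and without ESC replicate 2, 2088 were gained and 135 lost. Without MES replicate 3, 1932 were gained, and without MES replicate 1, 67 were lost.

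**Figure D1:**
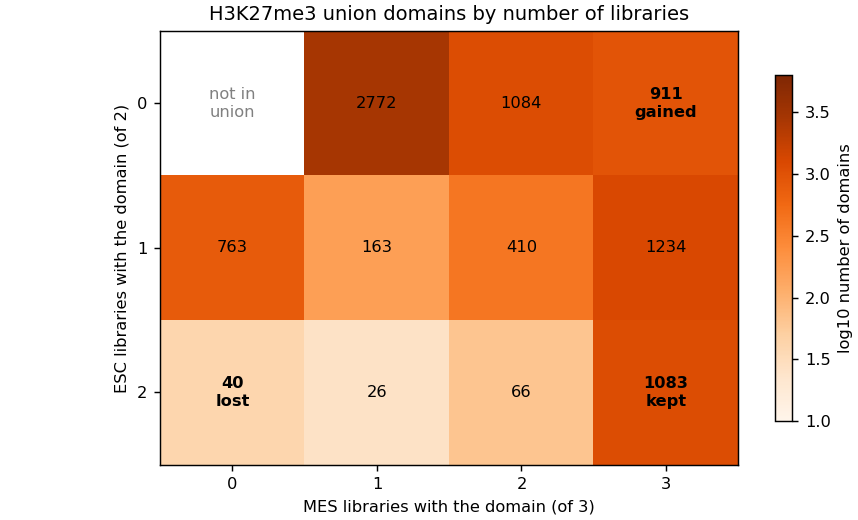
Number of union domains by how many of the 3 MES libraries (horizontal) and of the 2 ESC libraries (vertical) hold them, with shading by log10 number. The corners are the gained (911), lost (40) and kept (1083) classes, and the cell beside kept holds 1234 domains that only 1 ESC list has.

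Kept domains were wider than gained and lost domains. The median union width was 3050 bases for gained domains (quartiles 1850 and 5050), 2812.5 bases for lost domains (quartiles 1443.75 and 5862.5) and 7700 bases for kept domains (quartiles 4675 and 14475), against 1500 bases over all union domains. A kept domain merges 5 lists and a gained one 3, but the order was the same within 1 library, at 2525 bases for gained and 6625 bases for kept domains in MES replicate 1. Of the kept domains 419 (38.7%) reached 10 kb, compared with 78 of the gained (8.56%) and 682 of all union domains (7.97%). Gained domains also stood lower in the same MES libraries. Their median peak height was 39, 38 and 14 in MES replicates 1 to 3, while kept domains had 79, 69 and 24 there. The 1172 domains that ESC replicate 3 alone does not hold lay between them, at 52, 48 and 17. In MES replicate 3 a gained domain had a median joined width of 400 bases, against 2525 and 2075 bases in MES replicates 1 and 2, so many gained domains rest on a short call in that library. These widths and heights come from the libraries that chose the classes, and the classes were not tested against each other.

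The 10 widest gained domains ranged from 23350 to 98775 bases. The widest, chr9:57911951-58010725 (mm9), had 38350, 30000 and 6300 called bases in MES replicates 1 to 3 and none in either ESC library. It carried H3K4me1 over 28800, 29950 and 23400 bases in the 3 MES libraries, against 14650, 2075 and 7500 bases in the 3 ESC libraries. H3K27ac also covered more of it in MES, at 7200 and 3675 bases, against 1200 and 0 bases in ESC. H3K27me3 and this enhancer mark were thus both more extensive in MES across the widest gained domain.

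The domain at chr3:34538551-34572600 showed the opposite arrangement of active marks. H3K27me3 covered 13550, 29025 and 9350 of its 34050 bases in the 3 MES libraries and none in either ESC library, and it was called in every CP and every CM library. H3K27ac covered 2500 and 0 bases in MES, against 13900 and 22175 bases in ESC. H3K4me3 covered 7775 and 9150 bases in MES and 16375 and 23725 bases in ESC. RNAPII Ser5P covered 450 and 275 bases in the 2 MES libraries, compared with 15125 bases in the single ESC library. All of these groups were separate, while H3K4me1 overlapped between the stages, at 10500, 17525 and 15100 bases in MES and 12700, 18025 and 19475 bases in ESC.

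Similar values were found at chr7:147126476-147149825. H3K27me3 covered 11175, 11200 and 4950 bases of it in MES. H3K27ac covered 3175 and 775 bases in MES, against 7675 and 7000 bases in ESC. RNAPII Ser5P was called in neither MES library, and covered 10325 bases in the ESC library. The domain at chr17:29571776-29600825 had less H3K27ac in MES as well, with 4350 and 3550 bases against 14875 and 12450 bases in ESC. It differed in what followed, since none of the CP or CM libraries called H3K27me3 there. This was so for 2.41% of gained domains and 24.3% of union domains. Among the 10 widest gained domains, 9 were called in all 3 CP libraries, against 77.7% of gained and 44.5% of union domains. These shares do not allow for width. The 3 domains described last are those among the 10 widest where both MES libraries had less H3K27ac than both ESC libraries. At 3 others, the widest among them, both MES libraries had more. Mean H3K27ac was higher in MES at 5 of the 10 and lower at 5, so the widest gained domains had no common direction. H3K27ac was called in both MES libraries at 6 of them and in both ESC libraries at 5, against 29.4% and 16% of union domains, most of which are much narrower.

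Few domains were lost, and most rested on little in ESC replicate 3. The median joined width of a lost domain was 2487.5 bases in ESC replicate 2 and 100 bases in ESC replicate 3. The widest, chr15:93339151-93359725, had 6875 called bases in ESC replicate 2 and 75 in ESC replicate 3. H3K27ac covered 4250 and 9775 of its bases in MES, against 700 and 0 in ESC. H3K4me1 covered 6400, 12650 and 13100 bases in MES, against 975, 1250 and 1075 bases in ESC. RNAPII Ser5P covered 575 and 850 bases in MES and was not called there in ESC. No CP or CM library called H3K27me3 in this domain.

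The second widest lost domain, chr7:80536326-80555225, had H3K27ac over 4950 and 4675 bases in MES and over 2750 and 0 bases in ESC. RNAPII Ser5P covered 1350 and 2850 bases in MES and was not called in ESC. Of the 10 widest lost domains, 8 had H3K27ac in both MES libraries and 2 had it in both ESC libraries. The shares of union domains, most of which are narrower, were 29.4% and 16%. Mean H3K27ac was higher in MES at 9 of these 10 and was not called in either stage at the other. RNAPII Ser5P was called in both MES libraries at 6 of the 10 and in the ESC library at 2, against 12.7% and 14.7% of the same, mostly narrower, union domains.

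The widest kept domains were long in both stages. The 4 widest lay at chr15:102735226-102873625, chr6:52093801-52227700, chr11:96107301-96240550 and chr2:74484101-74603825, with union widths of 138400, 133900, 133250 and 119725 bases. The 4 clusters of Hox genes, transcription factors that set position along the body axis and classic Polycomb targets, are on chromosomes 6 (Hoxa), 11 (Hoxb), 15 (Hoxc) and 2 (Hoxd) in the RefSeq table, where 39 of 39 Hox symbols were found. That table is of the GRCm38.p6 build, so only the chromosomes were compared and no domain was assigned to a cluster. At the widest, the joined width was 132475, 138400 and 135400 bases in the MES libraries, against 134525 bases in ESC replicate 2 and 66225 bases in ESC replicate 3. Apart from ESC replicate 3, these libraries therefore gave nearly the same extent.

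Other kept domains differed more between the stages. The domain at chr4:119930176-120004850 had joined widths of 74675, 66000 and 27450 bases in the MES libraries, against 11050 and 3325 bases in ESC replicates 2 and 3. The domain at chr4:115548126-115655025 had 106225, 77075 and 63200 bases in MES, against 35350 and 11550 bases in ESC. In both, every MES library was wider than both ESC libraries. Both were called in every CP and every CM library. The largest difference in mean log2 width among such domains was 7.36, at chr4:132798176-132813450, where MES had 15275, 13800 and 13525 bases and ESC had 50 and 150 bases. These joined widths include gaps, and called bases there were 8725, 3150 and 1125 in MES replicates 1 to 3, against 50 and 150 in ESC. Called H3K27me3 was thus more extensive there in every MES library, but filled little of the joined width in MES replicate 3. The third most widened, chr17:29529676-29556800, had 27125, 25075 and 14650 bases in MES and 250 and 175 bases in ESC, and it lies beside the gained domain of chromosome 17 described above.

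Across all kept domains, 411 of 1083 (38%) were wider in all 3 MES libraries than in both ESC libraries, and 6 (0.554%) were narrower in all 3. The wider share was 67.2% without MES replicate 3 and 91.7% without ESC replicate 2, and the narrower share was 11.5% without ESC replicate 3. The other 666 overlapped between the stages. The median joined width was 6625, 5875 and 3650 bases in MES replicates 1 to 3, against 4075 and 450 bases in ESC replicates 2 and 3. MES replicate 3 was thus narrower than ESC replicate 2. The median width was higher in MES by 1.95 on the log2 scale, which did not pass an exact two-sided permutation of the stage labels (p = 0.2, adjusted p = 0.460 over 29 tests), and by 0.36 without ESC replicate 3. With 3 against 2 libraries the smallest possible p is 0.1, so no such comparison could pass 0.05.

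The pairs of libraries show how much of this rests on single lists. Against ESC replicate 2, 839 kept domains were wider in MES replicate 1, with a median fold of 1.41. The same comparison gave 866 wider domains and a median fold of 1.31 in MES replicate 2. In MES replicate 3, 453 were wider and 621 narrower, with a median fold of 0.935. Against ESC replicate 3 the median fold was 12.5, 11.8 and 5.8 in MES replicates 1 to 3. Direction thus depended on the MES library when ESC replicate 2 was the comparator and was the same in all 3 when ESC replicate 3 was.

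**Figure D2:**
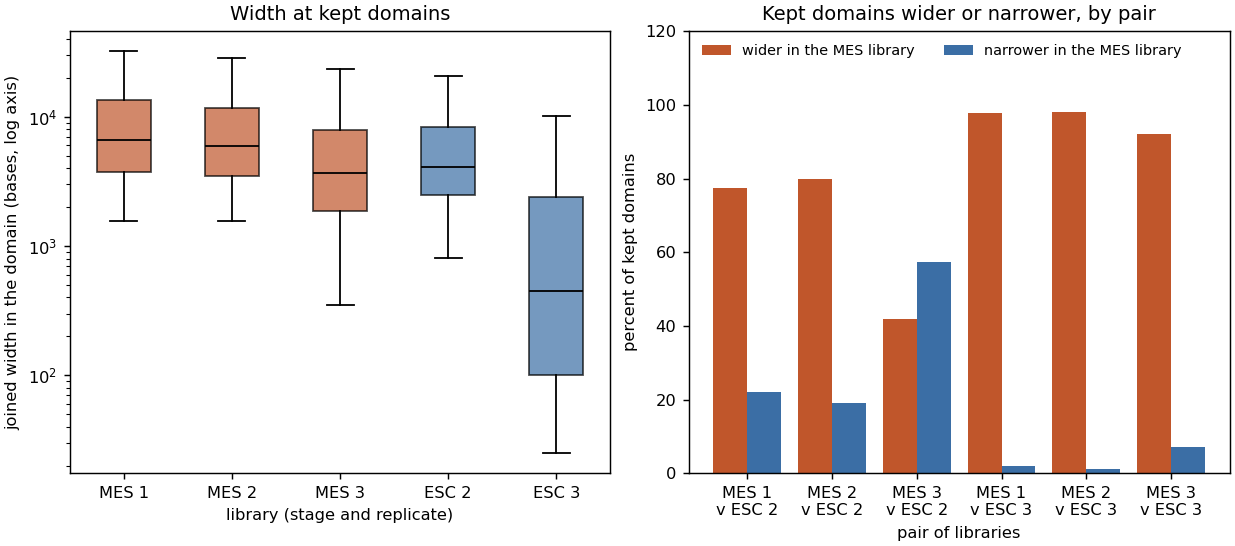
Left, joined width of H3K27me3 in the 1083 kept domains by library on a log axis, with boxes at the quartiles, a line at the median and whiskers at the 5th and 95th percentiles. Right, percent of kept domains wider or narrower in the MES library of each pair, where MES replicate 3 against ESC replicate 2 is the pair with more narrower (621) than wider domains (453).

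Set against ESC replicate 2 alone, 420 kept domains were wider and 128 narrower in all 3 MES libraries. Over all 2255 domains that these 4 lists hold, 40.6% were wider and 11.5% narrower, so the kept class (38.8% and 11.8%) was near the background. Width differed with the starting size. Kept domains were ranked by their ESC replicate 2 width and cut into 4 groups of 269 to 272. In the narrowest group, of up to 2462.5 bases, the median log2 ratio to ESC replicate 2 was 1.27, 0.96 and 0.00 in MES replicates 1 to 3. In the widest group, from 8287.5 bases, it was 0.29, 0.29 and 0.01. The ESC replicate 2 width that cut the groups is also the denominator of these ratios, so their order is a description.

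The extent of H3K27me3 was also counted base by base within the 13.1 Mb of kept domains. The count used joined regions, which include gaps under 5 kb that were not called. The joined regions of all 5 libraries shared a core of 2.30 Mb. Bases joined in all 3 MES libraries and in no ESC library made up 1.28 Mb, in 628 domains. Bases joined in both ESC libraries and in no MES library made up 0.0200 Mb, in 34 domains. Against ESC replicate 2 alone, 1.32 Mb in 639 domains was joined in all 3 MES libraries only. A further 0.354 Mb in 256 domains was joined in ESC replicate 2 and in no MES library. In the pair with replicate number 2, MES alone had 3.58 Mb, ESC alone had 0.527 Mb and the stages shared 7.09 Mb. MES replicate 2 went beyond ESC replicate 2 on both sides in 648 kept domains. A median kept domain was called over 57.7%, 67.1% and 28.1% of its length in MES replicates 1 to 3, against 42.3% and 2.34% in ESC replicates 2 and 3 (p = 0.3, exact permutation, two-sided, adjusted p = 0.460). These lists chose the kept domains too, so this p is likewise a description.

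Narrowing in all 3 MES libraries against both ESC libraries was seen in 6 kept domains. The short widths in ESC replicate 3, with a median of 450 bases, limit that count. Against ESC replicate 2 alone, 128 kept domains were narrower in all 3 MES libraries. At chr5:143575726-143582600 the joined width was 1650, 400 and 50 bases in the MES libraries, against 6875 and 2100 bases in ESC, and no CP or CM library called H3K27me3 there. H3K27ac covered all 6875 bases in both MES libraries and 4975 and 2900 bases in ESC. RNAPII Ser5P covered 4400 and 4775 bases in MES and 700 bases in ESC. At chr19:45810126-45820350 the joined width was 3650, 2825 and 25 bases in MES and 10225 and 4600 bases in ESC. H3K27ac covered 4225 and 1675 bases there in MES, against 275 and 0 bases in ESC.

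Active marks were then compared across the classes. These marks played no part in choosing the domains, and each value is the percent of the bases of a class that lie in called regions of a library. H3K27ac covered 18.0% and 6.94% of gained domains in the 2 MES libraries, against 27.6% and 13.7% in the 2 ESC libraries. In kept domains it covered 13.9% and 4.15% in MES, against 7.10% and 0.739% in ESC. In lost domains it covered 31.8% and 37.8% in MES, against 15.3% and 2.03% in ESC. Over all union domains it covered 17.3% and 6.91% in MES, against 14.3% and 4.02% in ESC, also higher in MES within each replicate number. The stages overlapped in gained and in kept domains and were separate in lost domains. Replicate 1 was above replicate 2 in 5 of these 6 pairs of libraries, and within each replicate number H3K27ac was lower in MES in gained domains and higher in MES in lost and in kept domains. The mean difference in gained domains, -8.18 points, was 0.0373 points when regions needed a ratio of target to background of at least 10.

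H3K4me3 covered 28% and 26.4% of gained domains in MES and 36.3% and 38.5% in ESC. It covered 35% and 41.7% of lost domains in MES and 25.0% and 27.5% in ESC. In kept domains it covered 27.6% and 24.4% in MES, against 23.4% and 22.2% in ESC. In all 3 classes the stages were separate, lower in MES in gained domains and higher in lost and kept domains. Over all union domains the stages lay close together, at 29.3% and 27.1% in MES and 29.2% in both ESC libraries. Union domains of no class were also lower in MES, at 31.4% and 30.0%, against 32.9% and 33.3% in ESC. Their mean difference was -2.37 points, against -10.2 in gained domains. By the share of domains with any overlap it was -8.06 points in those of no class and -4.17 in gained domains. A lower H3K4me3 in MES was thus not particular to gained domains.

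H3K4me1 covered 34.9%, 18.0% and 15.4% of gained domains in MES, against 26.1%, 7.63% and 15.4% in ESC, and the stages overlapped. It covered 28.1%, 40.0% and 41.0% of lost domains in MES, against 11.9%, 2.64% and 3.98% in ESC. In kept domains it covered 36%, 24.1% and 21.3% in MES, against 19%, 0.985% and 5.82% in ESC. The stages were separate in lost and in kept domains. Over all union domains H3K4me1 covered 34.5%, 20.7% and 18.4% in MES, against 19.9%, 2.50% and 8.13% in ESC. The mean difference was 14.4 points there, where the kept domains are included, and 18.5 points in kept domains. It was 12.5 points in union domains of no class, 6.40 in gained and 30.2 in lost domains. A difference in the same direction was thus also seen outside the kept class. RNAPII Ser5P covered 4.56% and 3.07% of gained domains in MES and 9.25% in the ESC library. It covered 14.9% and 16.9% of lost domains in MES and 0.479% in ESC, and 2.62% and 1.66% of kept domains in MES and 0.833% in ESC. Across the union it covered 4.04% and 2.82% in MES and 2.83% in ESC. With 1 ESC library there is no test for this target.

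**Figure D3:**
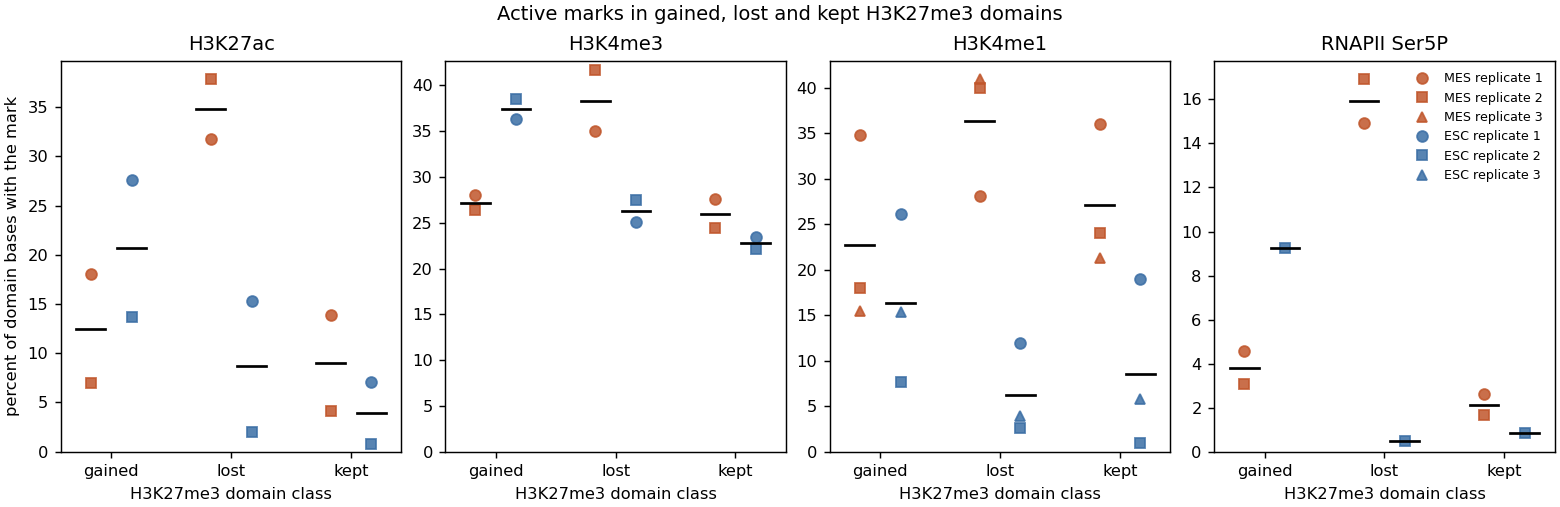
Percent of domain bases in called regions of each active mark, by class of H3K27me3 domain, with 1 point per library (MES left of ESC, symbol by replicate number) and a line at the mean. H3K27ac, H3K4me3 and RNAPII Ser5P have a lower mean in MES in gained domains and a higher mean in MES in lost and in kept domains, and H3K4me1 has a higher mean in MES in all 3 classes.

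The change from ESC to MES was set side by side in gained and kept domains, which share the same libraries of each mark. Mean H3K27ac coverage of gained domains was 12.5% ± 7.85 in MES and 20.7% ± 9.85 in ESC (SD, n = 2 each), a difference of -8.18 percentage points. In kept domains it was 9.02% ± 6.90 in MES and 3.92% ± 4.50 in ESC, a difference of 5.10 points. The change in gained domains was thus 13.3 points below that in kept domains (difference -13.3, p = 0.333, exact permutation, two-sided, the smallest that 2 against 2 libraries allow). For H3K4me3 the change in gained domains minus that in kept domains was -13.4 points (exact permutation p = 0.333, likewise the smallest possible). For H3K4me1 it was -12.1 points (exact permutation p = 0.1, the smallest for 3 against 3), and for RNAPII Ser5P -6.75 points with no test. After adjustment over 29 tests each p was 0.460.

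Counting domains in place of bases gave less separation. A domain counted as marked with 1 base of overlap. Gained, lost and above all kept domains have a larger median width than the union domains, which this count does not allow for. H3K27ac was present at 81.0% and 37.8% of gained domains in MES, against 83.5% and 37.4% in ESC, which is no separation. In the union as a whole these shares were 60.7% and 29.7% in MES, against 57.4% and 16.1% in ESC. Gained domains were above the union domains in each of these 4 libraries, and the union share was higher in MES within both replicate numbers. H3K4me3 was called in every library of both stages at 794 gained domains (87.2%), 28 lost domains (70%) and 1063 kept domains (98.2%), compared with 62.7% of all union domains. In ESC, where gained domains have no called H3K27me3, both H3K4me3 libraries were present at 847 of the 911 (93.0%). At kept domains both ESC libraries of H3K4me3 were present at 1076 (99.4%), so H3K4me3 lay within the same domain as H3K27me3 at nearly every kept domain. The same count in ESC gave 71.4% of all union domains.

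Switches that needed every library of both stages were rare for H3K27ac. It was called in both ESC libraries and no MES library at 20 gained domains (2.20%), against a background of 1.74% of union domains. It was called in both MES libraries and no ESC library at 5 lost domains (12.5%) and 23 kept domains (2.12%), against a background of 1.78%. The gained and kept shares were near the background. Without replicate 1 of H3K27ac these shares were 14.5% of gained, 55% of lost and 34.6% of kept domains, and without replicate 2 they were 9.22% of gained and 14.4% of kept domains. Without ESC replicate 2 of H3K27me3 the gained share was 1.01%. For shares with a library left out, no share over union domains was computed, so the backgrounds above do not apply to them. H3K27ac was called at 29.7% of union domains in MES replicate 2 and at 16.1% in ESC replicate 2. H3K27ac in every library of both stages was more frequent, at 209 gained domains (22.9%), 7 lost domains (17.5%) and 81 kept domains (7.48%), against 10.4% of union domains. RNAPII Ser5P was called in the ESC library and in neither MES library at 109 gained domains (12%), against 4.09% of union domains. It was called in both MES libraries and not in the ESC library at 18 lost domains (45%) and 122 kept domains (11.3%), against a background of 6%. It was called in all 3 libraries of these stages at 136 gained domains (14.9%) and 82 kept domains (7.57%), against 6.74%. For this target 1 ESC library decides the call. The gained share was 22.4% without MES replicate 1 of RNAPII Ser5P and 6.27% without ESC replicate 2 of H3K27me3. The lost share was 12.6% without ESC replicate 2 and 9.72% without ESC replicate 3 of H3K27me3. These shares too have no background of their own. H3K4me1 was called in all 3 MES libraries and no ESC library at 29 gained (3.18%), 5 lost (12.5%) and 26 kept domains (2.40%), against 4.58% of union domains, and in all 6 libraries at 118 gained (13%) and 127 kept domains (11.7%), against 5.09%.

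Within kept domains the active marks differed between the core and the bases joined in all MES libraries and in no ESC library. The core lay in 904 domains and the other bases in 628, so the 2 sets do not come from all the same domains. In the core, H3K27ac covered 25.0% and 6.59% of the bases in MES, against 8.41% and 0.874% in ESC. In the bases joined in all MES libraries and in no ESC library it covered 8.42% and 1.58% in MES, against 9.6% and 1.30% in ESC. H3K4me3 covered 51.6% and 43.8% of the core in MES, against 39.9% and 35.7% in ESC. In the bases joined only in MES it covered 19.3% and 15.8% in MES, against 20.1% and 19.9% in ESC. The bases joined only in MES thus held less H3K4me3 than the core in each of the 4 libraries.

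Bases joined in ESC replicate 2 and in no MES library, 0.354 Mb in kept domains, also held more active marks in MES, as the core did. H3K27ac covered 18.1% and 17% of them in MES, against 9.59% and 3.19% in ESC. H3K4me1 covered 22.1%, 32.9% and 31.3% in MES, against 11.6%, 1.77% and 3.81% in ESC. RNAPII Ser5P covered 6.54% and 6.89% in MES, against 2.31% in ESC. The stages were separate for all 3 marks. In the core H3K4me1 covered 59.7%, 39.9% and 35.7% in MES, against 31.5%, 0.346% and 6.70% in ESC, and RNAPII Ser5P covered 5.17% and 3.17% in MES, against 1.46% in ESC, also separate. The core's H3K27ac values, given above, overlapped between the stages.

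H3K27me3 at the later stages gives libraries that the choice of domains did not use. Gained domains were called in 68.2%, 49.6% and 13.3% of cases in CM replicates 1 to 3, against 96.8%, 92.0% and 78.8% in CP replicates 1 to 3. Kept domains were called in 91.9%, 86.1% and 54.1% in CM, against 99.1%, 98.4% and 96.6% in CP. Lost domains were called in 25%, 25% and 5% in CM, against 40%, 17.5% and 7.5% in CP. The shares of all union domains were 44.8%, 34.2% and 12.8% in CM, against 74.2%, 60.5% and 45.4% in CP. The CM libraries lay below all CP libraries in gained domains, in kept domains and in the union as a whole, and overlapped with them in lost domains. Gained and kept domains were above the union share in every CM and every CP library. They are also wider than most union domains, which this count does not allow for. CM replicate 3 is another sparse list, with 2929 regions, against 20484 and 11925 in CM replicates 1 and 2. The CP lists had 38392, 15331 and 13477 regions in replicates 1 to 3. Called regions covered 11.6, 7.48 and 0.411 Mb in CM, against 29.7, 19.7 and 9.38 Mb in CP. How much of the difference between the stages goes with list size was not tested.

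Mean presence at gained domains was 43.7% ± 27.9 in CM and 89.2% ± 9.32 in CP (SD, n = 3 each), a difference of -45.5 points (exact permutation p = 0.1, the smallest possible, adjusted p = 0.460). At kept domains it was 77.3% ± 20.3 in CM and 98.0% ± 1.29 in CP, a difference of -20.7 points (exact permutation p = 0.1, adjusted p = 0.460). Over all union domains it was 30.6% ± 16.3 in CM and 60.01% ± 14.4 in CP, a difference of -29.4 points, larger than that of kept domains and smaller than that of gained domains. At lost domains the difference was -3.33 points (exact permutation p = 0.9, adjusted p = 0.967). Every CM library called 111 gained domains (12.2%) and 584 kept domains (53.9%), against 12.2% of union domains. The sparse CM replicate 3 sets this count, since CM replicates 1 and 2 both called 440 gained domains (48.3%) and 924 kept domains (85.3%), against 32.8% of union domains. No CM library called 278 gained domains (30.5%) and 80 kept domains (7.39%), against 53.7% of union domains. Every CP library called 708 gained domains (77.7%) and 1042 kept domains (96.2%), against 44.5% of union domains. Of the lost domains, 21 (52.5%) were called in no CM and no CP library, against 24.3% of union domains.

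**Figure D4:**
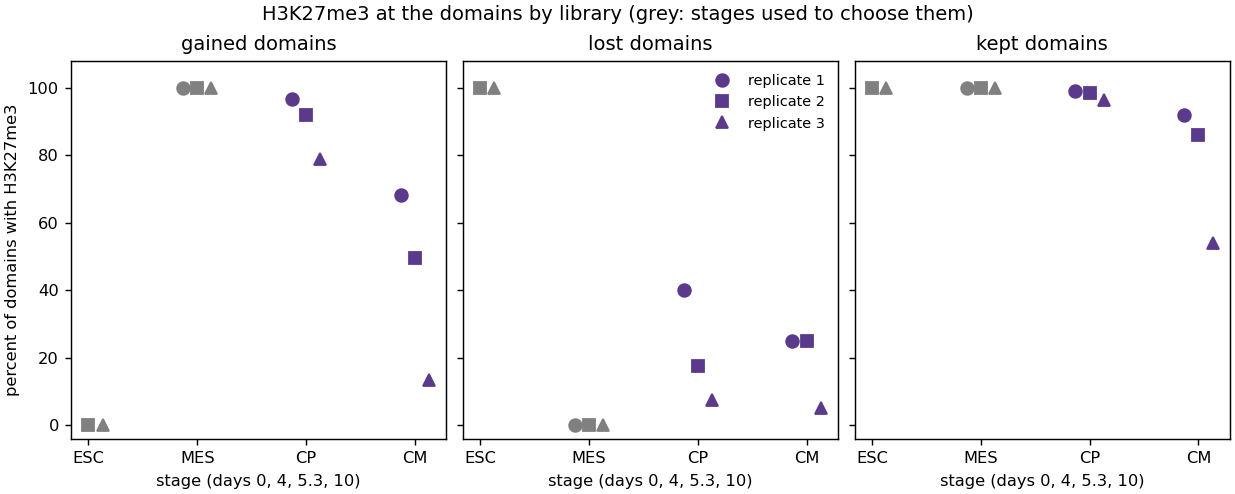
Percent of gained, lost and kept domains that each H3K27me3 library calls, by stage, with grey points for the ESC and MES libraries that chose the domains. Gained domains lie between 13.3% and 68.2% in CM and between 78.8% and 96.8% in CP, and kept domains lie above them in each CM and CP library.

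Position along the genome was also compared. The median gap to the nearest kept domain was 354 kb for gained domains, 949 kb for lost domains and 429 kb for union domains of no class, and 11.6% of gained domains and 13% of those of no class lay within 50 kb of a kept domain. The share of gained domains near a kept domain was thus no higher than that of the rest. The X chromosome had 160 union domains, of which 11 were gained, none lost and 3 kept (1.88%), against 12.7% kept over all chromosomes. The largest gained share was on chromosome 8, with 72 of 477 union domains (15.1%).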

How the data were processed

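The authors deposited 1 list of enriched regions for each library. Reads were aligned with Bowtie to mm9, per the submitters' processing notes, and the version, the caller and its settings are not given in the sources used here. Region lengths in the deposited lists are given in bases (recorded as other). Peak heights and target and background totals in the deposited lists were taken as signal, since how the authors scaled them is not given. No region of the 5 H3K27me3 lists had a target total under 5 times its background total. Starts are printed 1-based.

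Joined width is the length, in bases, covered after regions closer than 5 kb were joined in that library, and called bases are those of the regions themselves. Presence needed 1 base of overlap. Stages were compared by exact two-sided permutation of library labels, with Benjamini-Hochberg adjustment over 29 tests. Switches, gains and losses needed the same call in every library. The shares of bases were added after the data were seen. The members, lists and tests were chosen with earlier results of these data known. The domains named are the 10 widest of each class and the 5 kept domains most widened and 5 most narrowed in every library, and examples among them were chosen after their values were seen. Gene list comparisons and marker genes laid out at the start could not be run, since the annotation is of GRCm38.p6. The whole cell extract libraries have no list, so no background control was compared. H3K27ac libraries of CM were grouped by title, source and time point, against a cell type label of ESC. The code was tested on simulated lists, where it recovered all planted domains at 100% detection. Noise regions lay apart from the planted domains, so this recovery follows by construction and checks only the code. Alternatives were the joining distance (none, 1 and 10 kb), an equal number of 3252 top regions, a ratio of at least 10, regions of at least 500 bases, 20% cover, a majority of libraries, single libraries left out and replicate numbers as a block. Scripts ran under Python 3.11.15 with scipy 1.17.1, numpy 2.4.6 and pandas 2.3.3.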

Additional observations from a re-analysis of the deposited data

How the results depend on the processing

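Of 868 recomputed values for 53 results, 758 kept their direction or size, 84 moved and 26 reversed. No comparison passes a test at this number of libraries, and depth is unknown, so how many calls each list could hold is the main limit. The causes below were not tested, apart from what an alternative leaves out by construction. For every active mark, the change in gained domains minus that in kept domains stayed negative, between -16.4 and -4.01 points for H3K27ac, -18.3 and -7.52 for H3K4me3, -16.9 and -8.60 for H3K4me1, and -7.94 and -1.84 for RNAPII Ser5P. In what follows, switches are the percent of gained domains with a mark in ESC only, and of lost or kept domains in MES only, and differences are MES minus ESC in percentage points. No share over union domains was computed for switches under the alternatives.

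Leaving out single libraries gave 927 to 2088 gained, 42 to 741 lost and 1082 to 2255 kept domains, with 38.1% to 91.7% of kept domains wider and 0.531% to 11.5% narrower in every MES library. The ends of 2088 gained and 91.7% wider came without ESC replicate 2, those of 741 lost, 2255 kept and 11.5% narrower without ESC replicate 3. The log2 difference in median domain width over whole lists ranged from -0.019 (without ESC replicate 3) to 3.20. The difference in the share of domains marked ranged from -2.52 to 8.74 for H3K27ac at gained domains, from -18.7 to 3.66 for RNAPII Ser5P at gained domains, from -1.15 to 4.81 for H3K4me3 at lost domains and from -1.02 to 0.00 for H3K4me3 at kept domains. H3K27ac switches ranged from 1.01% to 14.5% (gained), 5.40% to 55% (lost) and 1.77% to 34.6% (kept), and RNAPII Ser5P switches from 6.27% to 22.4% (gained), 9.72% to 47.5% (lost) and 9.002% to 11.8% (kept).

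Without joining, 61 domains were lost and 25.6% of kept domains were wider, with switches of 3.61% for H3K27ac (kept) and of 9.48% (gained) and 8.33% (kept) for RNAPII Ser5P. With joining at 10 kb the H3K27ac difference at gained domains was 0.239. With 3252 top regions per list, 356 domains were gained, 104 lost and 28.5% of kept domains wider, the H3K4me3 difference at lost domains was -1.92 and the RNAPII Ser5P switch at kept domains 8.46%. A ratio of at least 10 left 2075 gained, 0 lost and 98 kept domains, 94.9% wider and 0% narrower. The difference at gained domains was then 10.5 for H3K27ac (0.0373 by bases) and 5.81 for RNAPII Ser5P, with H3K27ac switches of 0.675% (gained) and 5.10% (kept) and RNAPII Ser5P switches of 5.40% (gained) and 16.3% (kept). Regions of at least 500 bases left 406 gained, 4 lost and 68 kept domains, 32.4% wider and 0% narrower. At those 4 lost domains the differences were -37.5 for H3K27ac (-37.3 by bases), -25 for H3K4me3 (-31.2 by bases) and -8.33 for H3K4me1 (-5.71 by bases), CM minus CP in H3K27me3 was 25, and both switches were 0%. The kept switches were 4.41% for H3K27ac and 14.7% for RNAPII Ser5P.

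With 20% cover, 19 domains were lost and 305 kept. The differences were then 0.0701 for H3K27ac at gained, -5.26 for H3K4me3 at lost and 0.492 for H3K4me3 at kept domains, with H3K27ac switches of 1.26% (gained), 0% (lost) and 3.28% (kept) and a RNAPII Ser5P switch of 15.1% (kept). A majority of libraries gave 1995 gained and 803 lost domains, differences of 0.576 for H3K27ac at gained and -1.06 for H3K4me3 at lost domains, and RNAPII Ser5P switches of 9.57% (gained) and 9.46% (lost). With at least 500 bases of the mark, switches were 4.50% (gained) and 5.72% (kept) for H3K27ac and 6.002% (kept) for RNAPII Ser5P. With an equal number of top regions of the mark, differences were 2.20 for H3K27ac and 0.933 for RNAPII Ser5P at gained and 1.62 for H3K4me3 at kept domains, with H3K27ac switches of 6.26% (gained) and 26.0% (kept) and a RNAPII Ser5P switch of 8.23% (gained).

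Replicate numbers were not taken as pairs, since the labels do not tie them to shared cultures. Deviations of same-numbered ESC and MES libraries correlated at 0.140 (number 2) and -0.164 (number 3) for H3K27me3. For H3K27ac the value was 0.341 and for H3K4me3 0.200, where 2 libraries a stage give both pairs the same value by construction. For H3K4me1 it was 0.225, 0.0913 and 0.121 in numbers 1 to 3. The H3K4me1 pairs of ESC replicate 2 with MES replicate 3, and of ESC replicate 3 with MES replicate 2, gave 0.0914 and 0.0888, near the value of number 2. With the number as a block, 67 domains were lost, and 77.4% of kept domains were wider and 3.87% narrower in MES within both numbers 2 and 3. The block reversed no direction.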
